A study of Homo sapiens with 18 samples.

Results

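The RNA levels of 7 myeloid lineage transcription factors, SPI1, GFI1, KLF2, KLF4, KLF6, RARA and VDR, were followed across 18 libraries made from the poly(A) RNA of THP-1 cells. THP-1 is an established leukaemia line of monocytic character with the MLL-AF9 fusion gene. The 7 genes were chosen by name among the 19784 genes listed in each library, and each name matched 1 gene. All 7 passed the filter on low values in both experiments.

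SPI1 encodes PU.1, the ETS-family factor that binds enhancers of monocyte and granulocyte genes and without which these lineages do not form. GFI1 is a zinc-finger repressor that brings the LSD1 and CoREST corepressor to its targets, favours the granulocyte over the monocyte fate and is known to counter PU.1. KLF2, KLF4 and KLF6 are Krüppel-like zinc-finger factors of monocytes and macrophages. KLF4 promotes monocyte differentiation, KLF2 is known for holding monocytes in a quiescent state, and KLF6 is known from inflammatory macrophages. RARA and VDR are nuclear receptors for all-trans retinoic acid and for active vitamin D. Each binds DNA with a retinoid X receptor partner, and ligands of both drive differentiation of myeloid leukaemia cells.

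PHF8 is a histone demethylase. In the first experiment, the groups were unmodified THP-1 (wt), a line given PHF8 and a line given its F279S form, a substitution known to abolish demethylation, with 4 libraries per group. The second experiment held 2 libraries each of lines named ERAA, ERDD and ERPHF8, taken on day 3, whose genotype labels read PHF8AA, PHF8DD and PHF8. The labels name 4-OHT (4-hydroxytamoxifen, at 100 nM, the inducer of both forms) for ERAA and ERDD and no treatment for ERPHF8. In each comparison with ERPHF8, the line and the treatment label therefore cannot be told apart. The labels do not give the vector, its promoter or whether a line is 1 clone, and nothing says that the libraries of a group came from separate cultures, so p-values measure the spread between libraries, which may be technical.

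Library totals ran from 18.2 to 51.5 M reads. PHF8 RNA followed the labels, at 45.5 to 54.0 CPM (reads of a gene scaled to a common library total) in wt and 1098 CPM or more in the other 14 libraries. The lines differed in its level, at 1899.7 to 2096 CPM in PHF8 and 5001 to 5781 CPM in F279S, and at 1995 to 2305 CPM in ERAA, 1098 to 1119 CPM in ERDD and 1900.0 to 1912 CPM in ERPHF8. The part of that level in the differences between lines was not tested. Of 10 monocyte markers, FCN1 stayed under 1 CPM in all libraries and CD14 lay between 2.25 and 14.3 CPM, whereas the other 8, among them LYZ, CD33 and CD68, were at 21.0 CPM or more throughout. Among 8 markers of granulocyte precursors, ELANE, PRTN3, AZU1 and CTSG were at 523 CPM or more in every library and MPO at 2.98 to 8.88 CPM, while DEFA3, CEACAM8 and LTF stayed under 1 CPM. Of 9 markers of T, B and NK cells, 7 of erythroid cells and megakaryocytes and 8 of epithelial, stromal and endothelial cells, 6, 5 and 3 were under 1 CPM in every library, and the highest of the rest was NKG7, at 27.0 CPM. In the first experiment, libraries 1 and 2 of every group stood apart from libraries 3 and 4. They held 2888 to 3544 genes at 0 reads against 1839 to 2425, with totals of 18.2 to 24.3 M against 20.8 to 51.5 M reads. The labels do not name this split, so results that differ across it are given for both pairs.

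The genes lie, on hg38 as deposited, at chromosome 11 47354860 to 47378576 (SPI1), chromosome 1 92474762 to 92486876 (GFI1), chromosome 19 16324817 to 16327874 (KLF2), chromosome 9 107484852 to 107490482 (KLF4), chromosome 10 3775996 to 3785281 (KLF6), chromosome 17 40309192 to 40357643 (RARA) and chromosome 12 47841537 to 47943048 (VDR). These spans are those of GENCODE v29. Values are per kilobase of the whole span, exons and introns, and no source used here says whether strand was used in counting. No other gene of the deposited tables overlaps the 7. In GENCODE v29, 2 further transcripts lie on the span of RARA, among them the antisense RARA-AS1, and 2 on that of VDR, also with 1 antisense transcript, and if strand was not used their reads cannot be told from those of RARA and VDR.

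Promoters are shown for GFI1, KLF2 and KLF6, which were lower in ERDD than in both other ER lines, and for KLF4, which was not. RefSeq's promoter table (GRCh38.p14) held 5 of the 7 genes, with no entry for SPI1 and VDR. Each sequence runs from 250 bases before to 50 bases after the listed start, 5′ to 3′ on the gene's strand: GFI1 at chr1:92486876-92487175 (minus strand), KLF2 at chr19:16324576-16324875 (plus), KLF6 at chr10:3785160-3785459 (minus) and KLF4 at chr9:107489720-107490019 (minus). Capitals mark matches, on either strand, to a MEF2 site (the run of 10 letters in KLF2), an E-box (CACGTG), the CCAAT box (CCAAT) and a PU.1 core (GAGGAA).
GFI1: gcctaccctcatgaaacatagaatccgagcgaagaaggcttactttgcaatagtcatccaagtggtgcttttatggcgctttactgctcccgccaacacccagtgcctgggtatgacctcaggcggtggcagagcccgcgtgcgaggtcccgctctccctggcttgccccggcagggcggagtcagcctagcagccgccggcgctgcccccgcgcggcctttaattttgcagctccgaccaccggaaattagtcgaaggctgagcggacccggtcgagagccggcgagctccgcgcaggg
KLF2: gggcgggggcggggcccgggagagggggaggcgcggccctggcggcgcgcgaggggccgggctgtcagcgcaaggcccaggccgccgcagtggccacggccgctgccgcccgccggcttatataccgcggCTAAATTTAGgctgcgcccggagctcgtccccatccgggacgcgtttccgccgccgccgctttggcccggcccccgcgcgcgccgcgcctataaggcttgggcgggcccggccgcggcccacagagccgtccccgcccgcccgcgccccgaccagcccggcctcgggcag
KLF6: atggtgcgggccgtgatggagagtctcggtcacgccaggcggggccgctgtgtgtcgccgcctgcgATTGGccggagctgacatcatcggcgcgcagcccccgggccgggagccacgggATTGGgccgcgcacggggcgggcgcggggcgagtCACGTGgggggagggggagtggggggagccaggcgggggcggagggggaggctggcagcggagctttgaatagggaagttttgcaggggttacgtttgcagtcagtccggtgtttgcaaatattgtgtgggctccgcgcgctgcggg
KLF4: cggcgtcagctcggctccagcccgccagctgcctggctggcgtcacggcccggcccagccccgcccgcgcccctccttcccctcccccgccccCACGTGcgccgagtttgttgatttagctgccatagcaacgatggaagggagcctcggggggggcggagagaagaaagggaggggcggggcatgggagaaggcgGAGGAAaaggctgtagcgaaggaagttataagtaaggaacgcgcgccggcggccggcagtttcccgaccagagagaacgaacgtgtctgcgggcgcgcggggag

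The KLF2 promoter holds the MEF2 site, which begins 120 bases before the start. Its letters occur in 23 of the 35116 promoters of the table (0.0655%). KLF6 and KLF4 each hold 1 E-box, 97 and 157 bases before the start, a match found in 7.26% of promoters. KLF6 also holds 2 CCAAT boxes, found in 34.6% of promoters, and KLF4 1 PU.1 core, found in 27.9%. None of the 4 motifs in capitals occurs in the GFI1 window shown. The table lists 3 starts for GFI1, of which the first is shown; the window of the second start holds 1 CCAAT box and that of the third 1 PU.1 core. The GC box GGGCGG, not in capitals and present in 45.0% of promoters, was counted 1 time in GFI1, 6 times in KLF2, 2 times in KLF6 and 4 times in KLF4, with 1 pair of matches in KLF2 that share bases. The GFI1 core AATC, also not in capitals and present in 69.0%, matched 1 time in GFI1, 0 times in KLF2, 2 times in KLF6, where both matches overlap the CCAAT boxes, and 1 time in KLF4. CpG dinucleotides numbered 49 in KLF2, 33 in KLF6 and KLF4 and 27 in GFI1, against a median of 14 over the table. The listed start of KLF4 lies 713 bases inside the deposited span. The matches describe the letters of these windows and are not evidence of binding.

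Per kilobase of exon, SPI1 was the most abundant of the 7 in wt cells, at 174 ± 10.4 CPM per kilobase of merged exon (SD, n = 4). GFI1 followed at 59.8 ± 2.39, KLF4 at 12.7 ± 1.17, RARA at 10.2 ± 0.281, VDR at 6.31 ± 0.827, KLF6 at 4.45 ± 0.733 and KLF2 at 2.31 ± 0.303. In this order, each gene's mean lay further from the next than the sum of their SDs. Reads within introns, if counted, would add to a gene with a long span such as RARA or VDR, and their share was not measured. All values below are CPM, which are not corrected for length, and are compared within a gene. Over the 18 libraries, the highest level was 3.55 times the lowest for KLF2, 2.02 times for KLF4, 1.98 times for KLF6, 1.74 times for SPI1, 1.59 times for GFI1, 1.57 times for VDR and 1.55 times for RARA. The lowest number of reads behind a value was 76 for KLF2 and 456 for the other 6 genes.

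**Figure D1:**
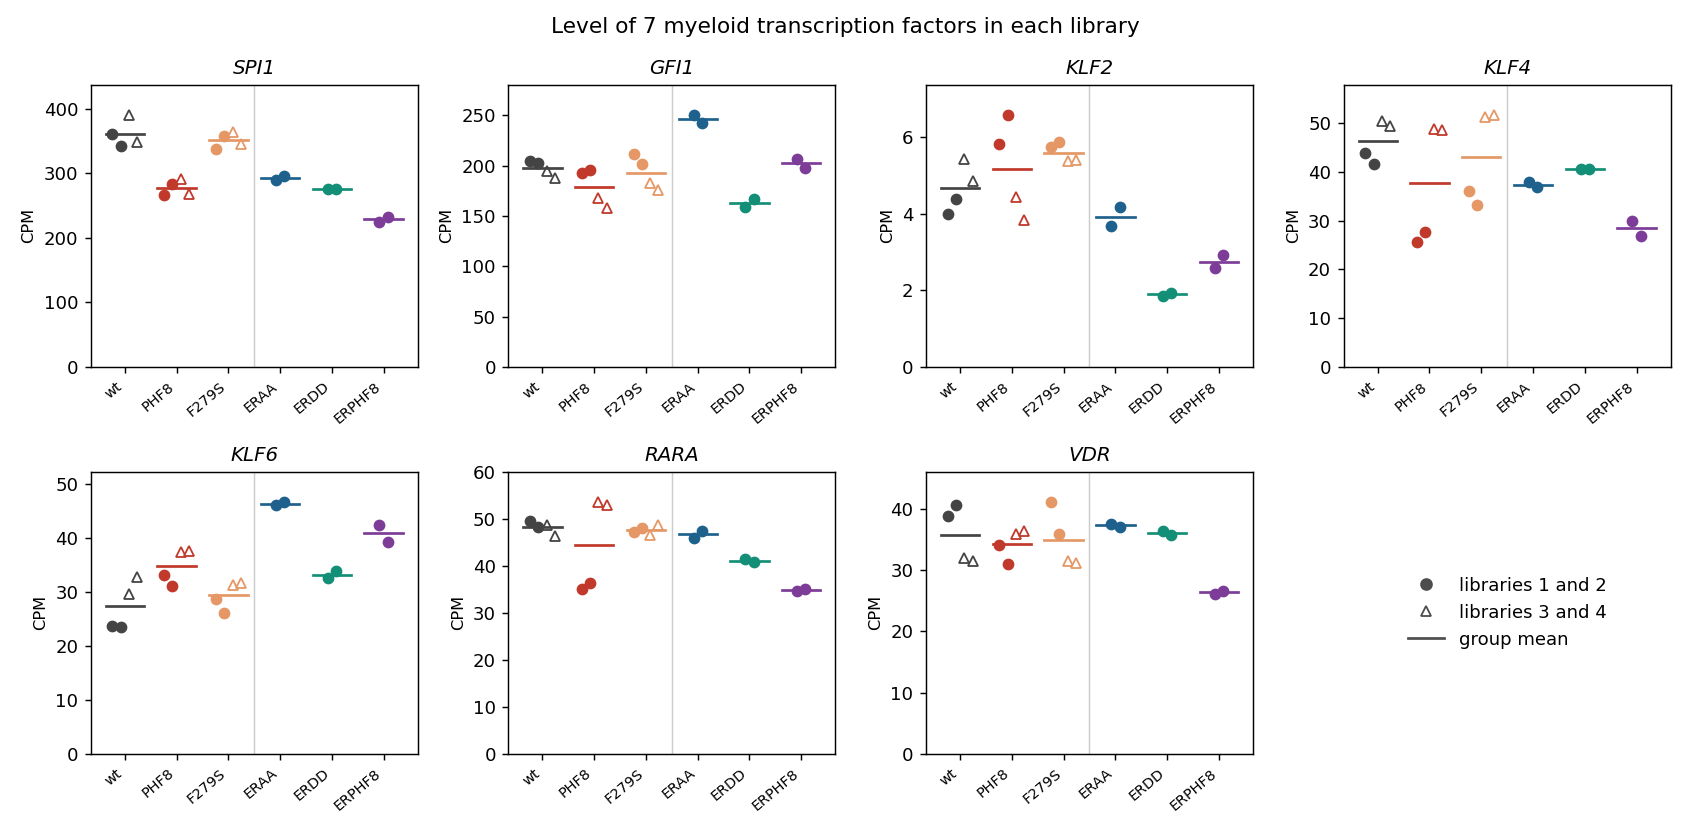
Level of each factor (CPM, axes from 0) in every library of the 6 groups, with libraries 1 and 2 as filled circles, libraries 3 and 4 as open triangles and the group mean as a line; a grey line separates the experiments. SPI1 is lower in the 4 PHF8 libraries (266 to 291 CPM) than in all wt libraries (342 to 390.5 CPM), and KLF4 and RARA split by library pair in the PHF8 line.

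The question of the first comparison was what added PHF8 does to these factors. SPI1 was the 1 factor called, and it was lower with PHF8. It measured 361, 342, 390.5 and 348 CPM in wt libraries 1 to 4, and 266, 284, 291 and 268 CPM in the PHF8 line. All 4 PHF8 libraries lay below all 4 wt libraries. The log2 change was -0.38 ± 0.06 (SE), with a 95% interval from -0.50 to -0.25 and an adjusted p of 0.00075 (limma, Benjamini-Hochberg over 13683 genes), a fall of 23.1%. Over all genes tested, 21% were called in either direction and 8.28% were lower, and groups did not overlap for 26.2%, so 1 of 7 called is no larger a share than the background. The summed monocyte markers also differed, at 1029 to 1284 CPM in PHF8 against 1628 to 2097 CPM in wt. Of the 9 tested, 3 were lower and 1 higher in PHF8 (all genes 8.28% and 12.7%). LYZ alone ran from 172 to 1043 CPM over the 18 libraries. The part of these markers in the result was not tested. In bulk RNA such as this, fewer cells of a type and less RNA per cell cannot be told apart.

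Against the catalytically inactive form the same direction was seen. SPI1 measured 339, 358, 364 and 346 CPM in F279S, above every PHF8 library, and PHF8 differed from F279S by -0.34 ± 0.06 on the log2 scale (adjusted p = 0.0015). Here 20.1% of genes were called, 7.92% as lower and 12.2% as higher in PHF8, and 26.6% did not overlap. The SPI1 value is not independent of the comparison with wt, since both use the PHF8 libraries. The fall was alike in the library pairs, at -0.35 and -0.40 against wt and at -0.34 in each pair against F279S. F279S itself differed from wt by -0.03 ± 0.06 for SPI1, with a 95% interval from -0.16 to 0.09.

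None of the 7 factors was called between F279S and wt by limma over all libraries, and none had an unadjusted p under 0.05. In that comparison 2 of 13683 genes (0.0146%) were called, 871 (6.37%) had an unadjusted p under 0.05, and groups did not overlap for 4.18%. limma's voom on the recovered reads likewise called 0 of the 7 factors. With the replicate block 0 of the 7 and 298 genes were called. With libraries 1 and 2 alone, limma called 2 of the 7, KLF2 (0.43, adjusted p = 0.026) and KLF4 (-0.30, 0.0072), where 1918 of 13500 genes were called. Over all libraries the widest differences were those of KLF2, 0.25 ± 0.15 (95% interval -0.08 to 0.57), and KLF4, -0.13 ± 0.22 (-0.61 to 0.36). For RARA the interval ran from -0.29 to 0.26, for GFI1 from -0.22 to 0.14 and for VDR from -0.28 to 0.21, so shifts of that size are not excluded by these libraries.

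GFI1, the repressor, measured 205, 203, 195 and 188 CPM in wt, 192, 196, 168 and 157 CPM in PHF8 and 211, 202, 183 and 175 CPM in F279S. The groups overlap, and in every group libraries 3 and 4 were the lower pair. PHF8 differed from wt by -0.15 ± 0.08 (adjusted p = 0.24), and it was called once the replicate block was added (adjusted p = 0.016). It was -0.07 in libraries 1 and 2 alone (adjusted p = 0.24) and -0.23 in libraries 3 and 4 alone (0.015, called), and the difference between the pairs did not pass (adjusted p = 0.10). Against F279S the difference was -0.12 ± 0.08 (adjusted p = 0.39). The reads of SPI1 divided by those of GFI1, a ratio taken within each library and not corrected for length, averaged 1.83 ± 0.138 in wt (SD, n = 4), 1.57 ± 0.177 in PHF8 and 1.83 ± 0.183 in F279S. It measured 1.763, 1.686, 2.006 and 1.856 in wt libraries 1 to 4, and 1.385, 1.450, 1.738 and 1.703 in PHF8. Both PHF8 libraries lay below both wt and both F279S libraries within each library pair, although the groups of 4 overlap. The ratio of PHF8 and wt did not pass an exact permutation test (two-sided p = 0.086, 0.33 after adjustment over the 6 comparisons of this ratio, with 0.029 the smallest p that 4 against 4 allows). That test does not take the library pairs into account, and the difference within pairs was not tested.

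KLF6 was higher with PHF8 in every library pair but missed the threshold. Its levels were 23.7, 23.5, 29.5 and 32.6 CPM in wt and 33.1, 31.0, 37.3 and 37.4 CPM in PHF8. Within each library pair both PHF8 libraries exceeded both wt libraries, although the groups of 4 overlap. The log2 difference was 0.35 ± 0.12 (adjusted p = 0.053), and with the replicate block it was called (adjusted p = 0.00089). F279S, at 28.7, 26.0, 31.2 and 31.7 CPM, lay between the other lines on average, 0.11 ± 0.12 above wt. PHF8 against F279S gave 0.24 ± 0.12 (adjusted p = 0.19, and 0.0088 with the block). Leaving out the fourth wt library alone also brought KLF6 past the threshold against wt, at 0.44 (adjusted p = 0.019).

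KLF4, RARA, VDR and KLF2 gave no call over the 4 libraries, and each changed by a different amount in the library pairs. KLF4 measured 43.8, 41.6, 50.4 and 49.4 CPM in wt, 25.6, 27.7, 48.8 and 48.5 CPM in PHF8, and 36.1, 33.2, 51.2 and 51.7 CPM in F279S. The first 2 libraries of PHF8 were thus the lowest of the 12, while the last 2 sat among wt. Its difference between PHF8 and wt was -0.67 in libraries 1 and 2 and -0.03 in libraries 3 and 4, and the pairs differed by 0.63 ± 0.09 (limma, adjusted p = 4e-04). Over all libraries it was -0.35 ± 0.22 (adjusted p = 0.31, and 0.026 with the replicate block). F279S too was below wt for KLF4 in libraries 1 and 2, at -0.30 (limma on these libraries alone, adjusted p = 0.0072). In libraries 3 and 4 that difference was 0.04. PHF8 against F279S gave -0.37 in the first pair and -0.08 in the second.

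RARA turned direction between the pairs. It measured 49.5, 48.3, 48.7 and 46.4 CPM in wt, 47.2, 48.2, 46.6 and 48.9 CPM in F279S, and 35.1, 36.4, 53.7 and 53.1 CPM in PHF8. The wt and F279S libraries lay within 46.4 to 49.5 CPM, while those of PHF8 fell on either side of that range. PHF8 against wt gave -0.45 in libraries 1 and 2 and 0.17 in libraries 3 and 4, a difference between pairs of 0.62 ± 0.08 (adjusted p = 0.00021). PHF8 against F279S gave -0.41 and 0.16. The value over all 4 libraries was -0.14 ± 0.13 (adjusted p = 0.51), between those of the pairs.

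VDR, whose ligand is active vitamin D, followed RARA in this. It measured 38.9, 40.7, 32.1 and 31.5 CPM in wt, 34.2, 31.0, 36.0 and 36.4 CPM in PHF8, and 41.2, 35.9, 31.5 and 31.2 CPM in F279S. Libraries 1 and 2 were the higher pair in wt and F279S and the lower pair in PHF8. PHF8 against wt was -0.29 in the first pair and 0.18 in the second (difference 0.47 ± 0.10, adjusted p = 0.0054). KLF2 went the other way, from 0.51 to -0.28 (difference -0.79 ± 0.16, adjusted p = 0.0036). Its levels were 4.01, 4.38, 5.42 and 4.86 CPM in wt, 5.83, 6.58, 4.45 and 3.84 CPM in PHF8, and 5.75, 5.87, 5.37 and 5.40 CPM in F279S. In libraries 1 and 2, F279S too was above wt for KLF2, by 0.43 (limma on these libraries alone, adjusted p = 0.026). In libraries 3 and 4 that difference was 0.06. PHF8 against F279S gave 0.085 in the first pair and -0.34 in the second.

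Differences between the pairs were thus called for 4 of the 7 factors in PHF8 against wt, where 30.5% of all genes were called. In PHF8 against F279S they were called for KLF4, RARA and VDR, where the background was 21.8%. F279S against wt gave none of the 7, with a background of 0.899%. With the replicate block, 4 of the 7 factors were called in PHF8 against wt (SPI1, GFI1, KLF4 and KLF6) while the genes called rose from 2874 to 5670. Within a group, libraries 3 and 4 differed from libraries 1 and 2 for KLF4, KLF6 and VDR in wt (0.22, 0.39 and -0.32), where 60.4% of genes were called. In F279S they differed for GFI1, KLF4, KLF6 and VDR (-0.20, 0.56, 0.20 and -0.29), with 57.7% of genes called. In PHF8 they differed for GFI1, KLF2, KLF4, KLF6 and RARA (-0.25, -0.53, 0.86, 0.22 and 0.57), with 27.1% called. KLF4 and KLF6 were thus higher in libraries 3 and 4 of all 3 groups. Depth and genes at 0 move with the pairs, as given above, and their part in these differences was not tested.

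**Figure D2:**
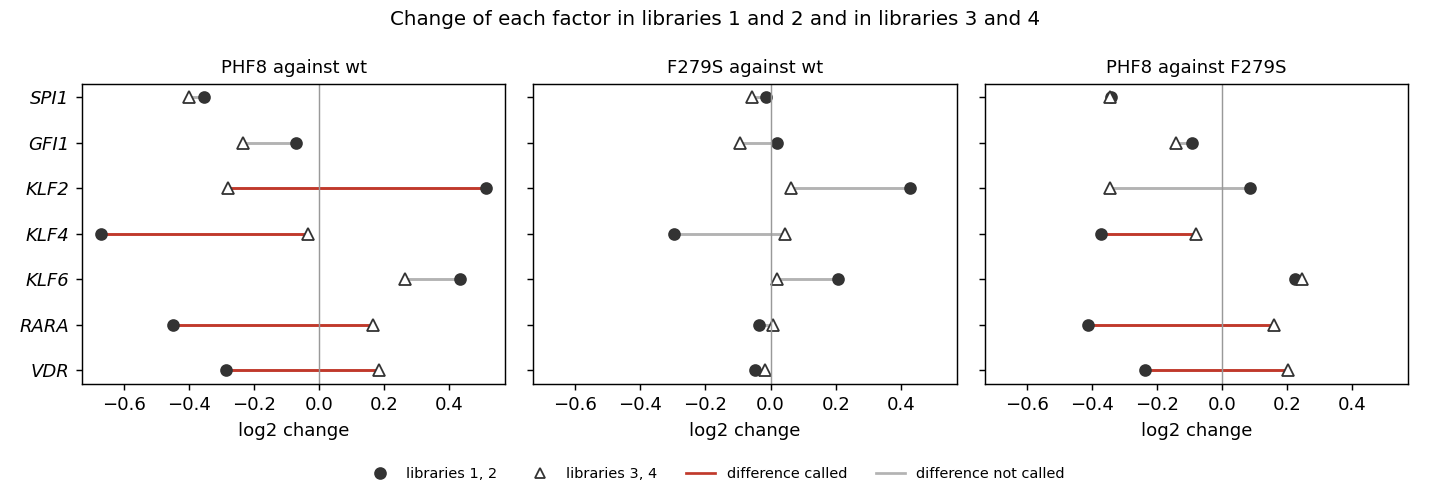
Log2 change of each factor in the 3 comparisons of the first experiment, computed in libraries 1 and 2 (filled circles) and in libraries 3 and 4 (open triangles), with a red line where the difference between pairs was called. SPI1 holds near -0.35 to -0.40 in both pairs of PHF8 against wt, whereas KLF2, RARA and VDR lie on opposite sides of 0.

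In the second experiment ERDD and ERAA were compared first, since both carry the 4-OHT label. GFI1, KLF2, KLF6 and RARA were lower in ERDD, and SPI1, KLF4 and VDR were not called. Of the 7 factors 4 were therefore lower and 0 higher, where 68.1% of the 13831 genes tested were called, 33.3% as lower and 34.8% as higher. The groups did not overlap for any of the 7, which was so for 83.7% of genes with 2 libraries a group. The median change of the 7 factors was -0.18, and the median over all genes was -0.00086. Taken without sign, the median change was 0.18 for the factors and 0.31 for all genes.

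KLF2 fell by the most of the 7. It measured 3.69 and 4.17 CPM in ERAA, 1.85 and 1.94 CPM in ERDD, and 2.58 and 2.92 CPM in ERPHF8. The 3 lines kept apart, with ERDD lowest. ERDD differed from ERAA by -0.88 ± 0.11 (limma, adjusted p = 0.00022), a fall of 51.7% on the mean, and 8.57% of all genes tested changed by more. KLF6 measured 46.0 and 46.6 CPM in ERAA, 32.5 and 33.7 CPM in ERDD, and 42.4 and 39.2 CPM in ERPHF8. ERDD was again the lowest line, at -0.48 ± 0.06 against ERAA (adjusted p = 0.00012).

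GFI1 measured 250.1 and 242 CPM in ERAA, 158 and 167 CPM in ERDD, and 207 and 197 CPM in ERPHF8. The order ERAA, ERPHF8, ERDD is that of KLF2 and KLF6. The change of GFI1 in ERDD against ERAA was -0.59 ± 0.05 (adjusted p = 1.5e-05), a fall of 33.8%. The summed markers of granulocyte precursors had the same order, at 4867 to 5439 CPM in ERAA, 4072 to 4089.6 CPM in ERPHF8 and 3258 to 3354 CPM in ERDD. Of the 5 tested, 4 were lower and 1 higher in ERDD than in ERAA (all genes 33.3% and 34.8%). Against ERAA, 3 were lower and 2 higher in ERPHF8 (all genes 24.1% and 29.7%). In the first experiment the sum was 3766 to 4464 CPM in F279S, 4790 to 5137 CPM in PHF8 and 5191 to 5403 CPM in wt. Without a block, 0 of the 5 markers were called in F279S or PHF8 against wt, and GFI1 was called in neither. With the replicate block 3 were lower in F279S and 2 in PHF8, where 298 and 5670 of all 13683 genes were called. The part of these markers in the result was not tested. SPI1 stayed close by comparison, at 289.7 and 296 CPM in ERAA and 275 CPM in each ERDD library, a difference of -0.09 ± 0.04 (adjusted p = 0.074). That difference was called when the first ERAA library was left out (-0.10, adjusted p = 0.011). SPI1 reads per GFI1 read therefore averaged 1.19 ± 0.0454 in ERAA and 1.69 ± 0.0638 in ERDD (SD, n = 2), and the exact permutation test of 2 against 2 cannot go below its p of 0.33.

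RARA measured 46.0 and 47.5 CPM in ERAA and 41.5 and 40.8 CPM in ERDD, -0.18 ± 0.05 (adjusted p = 0.0093). This call was lost without the first (adjusted p = 0.052) or the second (0.076) ERDD library. KLF4 measured 37.9 and 36.9 CPM in ERAA and 40.5 CPM in both ERDD libraries, 0.11 ± 0.06 (adjusted p = 0.14). VDR measured 37.6 and 37.1 CPM in ERAA and 36.4 and 35.8 CPM in ERDD, -0.05 ± 0.05 (adjusted p = 0.41). Of all genes tested, 91.9% changed by more than VDR did.

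All 7 factors were lower in ERPHF8 than in ERAA, where 53.8% of genes were called, 24.1% as lower and 29.7% as higher. The median over the 7 was -0.39, against 0.04 over all genes, and groups did not overlap for any of the 7 and for 76.3% of genes. VDR fell by the most, to 26.2 and 26.6 CPM, a change of -0.49 ± 0.05 (adjusted p = 0.00014). RARA, at 34.7 and 35.0 CPM, changed by -0.42 ± 0.05 (adjusted p = 0.00026), and KLF4, at 30.0 and 26.8 CPM, by -0.39 ± 0.06 (0.0013). SPI1, at 225 and 233 CPM, changed by -0.36 ± 0.04 (0.00022), and these are the lowest SPI1 values of the 18 libraries. GFI1 changed by -0.28 ± 0.05 (0.0015), KLF2 by -0.45 ± 0.11 (0.012) and KLF6 by -0.18 ± 0.06 (0.024). The KLF6 call was lost when the second ERPHF8 library was left out (-0.13, adjusted p = 0.20) and in a fit of these groups alone (adjusted p = 0.051). The KLF2 call was lost without the first ERPHF8 library (adjusted p = 0.08). The summed monocyte markers were 1293 to 1298 CPM in ERPHF8 against 1522 to 1573 CPM in ERAA. Of the 9 tested, 6 were lower and 1 higher in ERPHF8, and their part was not tested.

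ERDD and ERPHF8 differed for all 7 factors, in both directions, with 52.8% of genes called and no overlap for 84%. SPI1 (0.27 ± 0.04, adjusted p = 0.001), KLF4 (0.51 ± 0.06), RARA (0.24 ± 0.05) and VDR (0.44 ± 0.05) were higher in ERDD, where 24.8% of genes were. The summed monocyte markers were 1577 to 1607 CPM in ERDD against 1293 to 1298 CPM in ERPHF8. Of the 9 tested, 5 were higher and 1 lower in ERDD, and their part was not tested. GFI1 (-0.31 ± 0.05), KLF2 (-0.44 ± 0.11) and KLF6 (-0.30 ± 0.06) were lower in ERDD, where 28% of genes were. The adjusted p of the 7 lay between 3e-04 and 0.013, the highest being that of KLF2, whose call was lost without either ERDD library or without the second ERPHF8 library (0.058 to 0.096). The 3 comparisons of the ER lines share libraries, so each value stands for its own pair of lines and their directions are not independent. In order of level, then, ERAA was highest and ERDD lowest for GFI1, KLF2 and KLF6, while ERPHF8 was lowest for SPI1, KLF4, RARA and VDR, with ERAA and ERDD not called apart for SPI1, KLF4 and VDR. No test was made across the experiments.

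**Figure D3:**
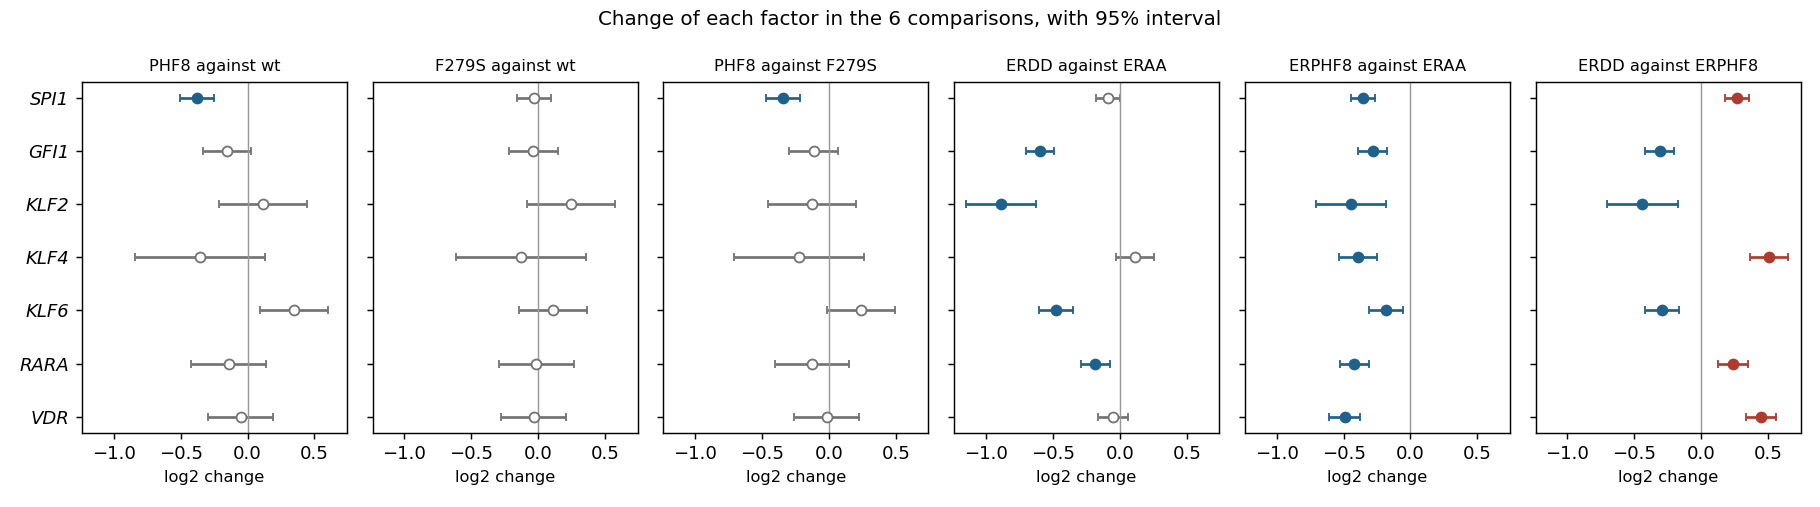
Log2 change of each factor in the 6 comparisons, as points with 95% intervals; filled points passed the threshold (blue lower, red higher in the line named first) and open points did not. SPI1 alone is filled in PHF8 against wt (-0.38) and PHF8 against F279S (-0.34), and all 7 factors are filled and below 0 in ERPHF8 against ERAA.

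The genes around these factors were taken from 7 lists, which share some genes and were chosen with earlier results of these data known. The part of the 7 factors in the changes of these genes was not tested. Their counts are to be read against the shares over all genes, which were 8.28% lower and 12.7% higher in PHF8 against wt, 33.3% lower and 34.8% higher in ERDD against ERAA, and 24.1% lower and 29.7% higher in ERPHF8 against ERAA. Among 18 target genes of PU.1, 5 were lower and 2 higher in PHF8 than in wt, with a median change of 0.02. LYZ, which encodes lysozyme, changed by -1.82 ± 0.22 (limma, adjusted p = 0.00014) and FCGR1A, a high-affinity IgG receptor, by -0.68 ± 0.11 (0.00082). Of the 18, 13 were lower and 4 higher in ERDD than in ERAA (all genes 33.3% and 34.8%), with a median of -0.34. The integrin ITGB2 changed by -1.13 ± 0.04 (4.2e-07) and the G-CSF receptor CSF3R by -1.06 ± 0.04 (5.9e-07). SPI1 changed by -0.09 ± 0.04 in that comparison (adjusted p = 0.074, not called). CSF1R, the M-CSF receptor, was among the 4 that were higher, at 0.59 ± 0.04 (6.9e-06). In ERPHF8 against ERAA, where SPI1 was lower, 15 of the 18 were lower and 0 higher, with a median of -0.37. The span of FCGR1A overlaps another gene, HIST2H2BF, and where spans overlap reads may be shared if strand was not used in counting. Among the others called in PHF8 against wt, FGR (-0.84) and CSF3R (-0.49) were lower and TLR4 (0.53) and CD68 (0.30) higher. In PHF8 against F279S, 4 of the 18 were lower and 0 higher (all genes 7.92% and 12.2%), with a median of -0.20. LYZ, FCGR1A, CD68 and CSF1R also belong to the monocyte markers above, so the counts of the 2 lists are not separate results.

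Of 10 partners of GFI1 in the LSD1 corepressor, 0 were called in PHF8 against wt by limma and 0 by voom. With the replicate block 2 were called, where 5670 of all 13683 genes were. Of the 10, 2 had an unadjusted p under 0.05. In ERDD against ERAA, where GFI1 was lower, 4 were lower and 3 higher, a share called near the 68.1% of all genes. HMG20B, a DNA-binding subunit whose span overlaps MFSD12, changed by -0.57 ± 0.04 (adjusted p = 1.4e-05) and PHF21A, the subunit that reads unmodified histone H3, by -0.60 ± 0.07 (8.7e-05). KDM1A, which encodes the demethylase LSD1 itself, was higher by 0.37 ± 0.04 (1e-04). ERPHF8 against ERAA gave 5 higher and 1 lower.

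Around the nuclear receptors, 17 genes of receptor partners and ligand metabolism were tested in the first experiment. Where 12.7% of all genes were higher and 8.28% lower in PHF8 than in wt, 3 of the 17 were higher and 0 lower. These were the coactivator NCOA1 (0.35 ± 0.08, adjusted p = 0.0075), the retinol dehydrogenase RDH10 (0.75 ± 0.23, 0.035), whose span overlaps RPL7, and CYP26B1, which degrades retinoic acid. CYP26B1, at 0.342 ± 0.276 CPM in wt and 1.69 ± 0.248 CPM in PHF8 (SD, n = 4), passed the filter on low values only through the PHF8 libraries, so it had to differ and its call carries no weight. It is still counted among the 3 and the 17, so this count is not read as a result about the list. Between ERDD and ERAA 5 of 16 were higher and 3 lower. DHRS3, which reduces retinal back to retinol, changed by -1.74 ± 0.09 (1.9e-06), RXRA, the shared partner of RARA and VDR, by 0.34 ± 0.04 (9.3e-05) and RDH10 by 0.46 ± 0.05 (0.00011). In ERPHF8 against ERAA, where RARA and VDR were lower, 2 were higher and 5 lower, RXRA among the latter at -0.31 ± 0.04 (0.00032).

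Of 14 known targets of retinoic acid or vitamin D, 3 were lower and 1 higher in PHF8 than in wt. FBP1 changed by -0.72 ± 0.09 (adjusted p = 0.00019), CD38 by -0.42 ± 0.07 (0.0014) and THBD, which encodes thrombomodulin, by -0.77 ± 0.21 (0.019). The gene that was higher was HIC1, at 0.31. In ERDD against ERAA 6 were lower and 3 higher, again near the 68.1% of all genes called. G0S2, an inhibitor of lipolysis, gave the widest change, -3.16 ± 0.08 (6.1e-08), from 34.5 ± 3.03 CPM in ERAA to 3.40 ± 0.193 CPM in ERDD (SD, n = 2), followed by DHRS3 and by PRAM1 at -0.92 ± 0.08 (2.3e-05). CD38 went the other way there, at 1.19 ± 0.11 (4.5e-05). ERPHF8 against ERAA gave 8 lower and 2 higher.

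Of 15 other KLF and SP factors, 4 were higher in PHF8 than in wt and 0 lower, where 12.7% of all genes were higher. KLF5 changed by 0.97 ± 0.13 (adjusted p = 0.00027), KLF12 by 1.95 ± 0.41 (0.0053), KLF8 by 0.88 ± 0.27 (0.034) and KLF3 by 0.23 ± 0.07 (0.048). With the replicate block 7 were higher and 1 lower, where 3066 of all 13683 genes were higher and 2604 lower. In ERDD against ERAA, where KLF2 and KLF6 were lower, 9 of the 15 were lower and 3 higher. KLF10, a TGF-beta-induced repressor, changed by -1.11 ± 0.05 (1.2e-06), KLF9 by -0.94 ± 0.06 (4.9e-06) and KLF7 by -0.81 ± 0.06 (9.2e-06). ERPHF8 against ERAA gave 7 lower and 3 higher.

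Among targets of KLF2, KLF4 and KLF6 the directions were mixed. In PHF8 against wt 2 of 6 were lower, NOS3 (-0.75 ± 0.16, adjusted p = 0.0054) and THBD, and 0 higher. Between ERDD and ERAA 4 of 7 were higher and 3 lower, with a median of 0.72. The cell-cycle inhibitor CDKN1A was higher by 1.30 ± 0.05 (3.2e-07), ENG, the TGF-beta co-receptor endoglin, by 0.72 ± 0.04 (3.4e-06) and the integrin ITGB7 by 0.87 ± 0.05 (3.5e-06). THBD, TGFBR1 and NOS3 were the 3 that were lower. The spans of NOS3 and ITGB7 overlap other genes (ATG9B and ZNF740). In ERPHF8 against ERAA 2 were higher and 2 lower.

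Of 27 other haematopoietic transcription factors, 6 were lower and 4 higher in PHF8 than in wt. MEF2C changed by 0.51 ± 0.08 (adjusted p = 0.00096), SPIB, the ETS factor nearest to PU.1, by 0.73 ± 0.14 (0.0024) and TFEC by -0.33 ± 0.07 (0.0035). With the replicate block 10 were lower and 5 higher, where 2604 of all 13683 genes were lower and 3066 higher. Of 26, 15 were lower and 7 higher in ERDD than in ERAA (all genes 33.3% and 34.8%). CEBPD and CEBPB, C/EBP factors of granulocytes and macrophages, changed by -1.18 ± 0.05 (4.6e-07) and -1.44 ± 0.06 (6.4e-07), and LMO2 by -0.77 ± 0.04 (2e-06). SPIB was higher, at 1.62 ± 0.12 (9.7e-06). ERPHF8 against ERAA gave 12 lower and 8 higher. In F279S against wt, limma called 0 of the 102 distinct genes tested in the 7 lists and voom 0. With the replicate block 3 were called, and 12 had an unadjusted p under 0.05. Over all 13683 genes, 298 were called with the block and 6.37% had an unadjusted p under 0.05. The spans of HIC1 and SPIB, too, overlap other genes of the tables. FGR, TLR4, CD68, HIC1, KLF3, CSF3R in PHF8, and CSF1R, CD38, ITGB7, THBD, NOS3, TGFBR1 and SPIB in ERDD, were named after their values were seen.

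**Figure D4:**
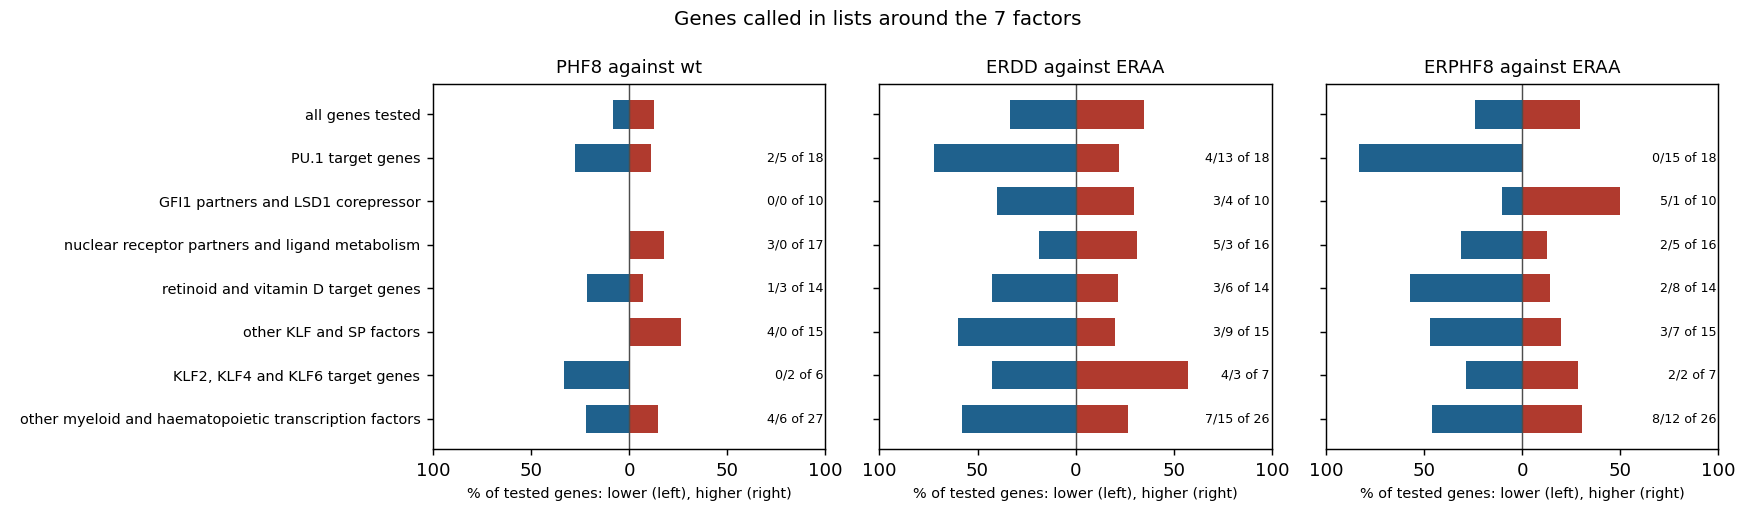
Share of the tested genes of each list that were called lower (blue, left of 0) or higher (red, right of 0), in percent, in 3 comparisons, with counts higher/lower of tested at the right and all genes tested in the top bar. PU.1 targets are mostly lower in ERDD (13 of 18) and ERPHF8 (15 of 18), while 2 higher and 5 lower are seen in PHF8 against wt. In PHF8 against wt, the bar of nuclear receptor partners includes CYP26B1, whose call carries no weight.

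Genes whose pattern was most like each factor were found by the cosine of log2(CPM + 0.5), centred on the mean of each experiment, over the 18 libraries and 13724 genes. The libraries are shared by all genes, so the values are descriptions. SPI1 was most like EEF1A2 (0.94), SH3BP1 and GPR137 (each 0.93). GFI1 was most like MARS and PTPN22 (each 0.94) and CCDC174 (0.93), and KLF2 most like GIPC3 (0.93), PRAME (0.91) and MARS (0.90). KLF4 lay with KIF26A (0.95), JAG2 and GPR55 (each 0.94), and KLF6 with PREX1, FHL1 and SHF (each 0.96). RARA lay with the leukocyte receptors LILRA2 (0.94) and LILRA1 (0.91), which overlap each other, and with REPIN1 (0.91). VDR was most like PDLIM2 (0.90), CCDC69 (0.89) and MMP15 (0.88). SH3BP1, GPR137, MARS, REPIN1, PDLIM2 and CCDC69 each overlap another gene of the tables. Among the 7 factors the highest values were 0.79 between KLF4 and RARA and 0.76 between GFI1 and KLF2, and SPI1 and GFI1 gave 0.32. The lowest were -0.41 between KLF2 and KLF4 and -0.41 between SPI1 and KLF6. Centring on the experiment leaves the split between library pairs in these values, and its part was not tested.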

How the data were processed

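Poly(A) RNA of THP-1 cells was sequenced (NEBNext Ultra II libraries, per the labels' protocols). The authors deposited 1 table of RPKM values per library. STAR 2.7.0c, SAMtools 1.9, DESeq2 and hg38 are named in the submitters' processing notes. What counted the reads, whether by strand, and on which gene models is not given in the sources used here. Deposited values are whole reads divided by the gene's full span, since multiplying by span and depth gave whole reads for 100% of values within 0.001. Whether reads in introns were counted is not known.

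CPM was computed as RPKM times the span in kilobases. Genes with at least 1 CPM in at least 4 (first experiment) or 2 libraries (second) were tested with limma 3.58.1 (trend, eBayes; R 4.3.3) on log2(CPM + 0.5), with Benjamini-Hochberg adjusted p under 0.05 as the threshold. A fold change on this scale understates that of low genes. Each experiment was fitted alone. The script was tested on simulated data. In the first experiment same-numbered libraries deviated together (r = 0.48 to 0.91 over 12 pairs), as did different numbers of the same library pair (0.23 to 0.82), and no label says what a number marks. The tests reported first have no block; the fit with the replicate block is given beside each factor whose call it changes. Named genes were all 7 factors, up to 3 called genes per list by p in PHF8 against wt and in ERDD against ERAA, and the 3 most alike genes per factor; some of these are not reported here. Factors, lists and tests were chosen with earlier results of these data known. Alternatives changed the pseudocount, filter, scaling, engine, block and libraries used.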

Additional observations from a re-analysis of the deposited data

Results flagged for a closer look

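The change of 4 factors with PHF8 differed between libraries 1 and 2 and libraries 3 and 4 by a test of that difference (limma, change in libraries 3 and 4 minus change in libraries 1 and 2, on the log2 scale). Against wt the difference was -0.79 for KLF2 (adjusted p = 0.0036), 0.63 for KLF4 (4e-04), 0.62 for RARA (0.00021) and 0.47 for VDR (0.0054). Against F279S it was 0.29 for KLF4 (0.034), 0.57 for RARA (0.00052) and 0.44 for VDR (0.011), and -0.43 for KLF2 (0.077), which did not pass. The comparisons share the PHF8 libraries. For SPI1 the difference was -0.04 against wt (adjusted p = 0.75). By Dixon's test, which looks for 1 outlying library, no factor had a library that stood apart from the others of its group of 4, over 21 groups tested. That test cannot find a split of 2 libraries against 2, so it does not bear on the library pairs.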

How the results depend on the processing

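In PHF8 against wt, 1 of the 7 factors and 2874 genes were called. The factors called numbered 2 with median-of-ratios scaling and 2 with voom, 4 with the replicate block, 4 with library pair as a factor, 6 with the first pair of libraries (1 and 2) alone, 5 with the second pair (3 and 4) alone, and 1 to 2 when each library was left out. The genes called numbered 5670 with the replicate block, 5595 with the pair as a factor, 7025 in libraries 1 and 2 alone, 5833 in libraries 3 and 4 alone and 2126 to 2615 with a library left out. PHF8 against F279S went from 1 factor and 2750 genes to 2 and 5620 with the replicate block, 2 and 5565 with the pair, 5 and 7357 in libraries 1 and 2 alone and 3 and 4867 in libraries 3 and 4 alone. F279S against wt went from 0 factors and 2 genes to 298 genes with the block or the pair, 2 factors and 1918 genes in libraries 1 and 2 alone (KLF2 and KLF4) and 12 genes in libraries 3 and 4 alone. The cause of these shifts was not tested.

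With a library left out, the ER lines gave 3 to 5 factors and 7397 to 10038 genes for ERDD against ERAA, 6 to 7 and 4864 to 8694 for ERPHF8 against ERAA, and 6 to 7 and 4254 to 5199 for ERDD against ERPHF8; a group left with 1 library is assumed to vary like the others. There the replicate block changed the call of no factor, and same-numbered libraries did not deviate together (r = -0.34 to 0.10). The lowest counts came without ERPHF8 library 2 for ERPHF8 against ERAA, and without ERDD library 1 (4458), ERDD library 2 (4254) or ERPHF8 library 2 (4461) for ERDD against ERPHF8. Crossing the numbers in ERPHF8 against ERAA gave 8077 genes.

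Direction turned in 19 cases, all of them differences that had not been called in the main fit. Some were called in opposite directions by limma in the library pairs. In PHF8 against wt, VDR was lower in libraries 1 and 2 alone (adjusted p = 0.0033) and higher in libraries 3 and 4 alone (0.034). RARA did the same (5.3e-06 and a rounded 0.05), as did VDR in PHF8 against F279S (0.011 and 0.028). In PHF8 against wt, libraries 3 and 4 alone gave -0.28 for KLF2, 0.17 for RARA and 0.18 for VDR, and leaving out a library gave -0.11 to 0.012 for VDR. In PHF8 against F279S, libraries 3 and 4 alone gave 0.16 for RARA and 0.20 for VDR, libraries 1 and 2 alone 0.085 for KLF2, voom 0.0041 for VDR, and leaving out a library -0.069 to 0.062 for VDR. In F279S against wt, libraries 1 and 2 alone gave 0.019 for GFI1 and libraries 3 and 4 alone 0.044 for KLF4 and 0.0063 for RARA, and leaving out a library gave -0.059 to 0.0046 for SPI1, -0.082 to 0.0076 for GFI1 and -0.11 to 0.031 for VDR. No scaling moved the median of all genes by over 0.1. The count tests of edgeR and DESeq2 were not run, since the deposited unit is RPKM. KLF2, with 76 to 278 reads, has the least depth.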
